A study of Mus musculus with 6 samples.

Results

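Cytosolic ribosomal proteins are the proteins of the ribosomes that translate nuclear-encoded messages, and 61 of the 19938 genes measured on these arrays encode or name one. They were taken by symbol: every gene with a probeset annotated to a single symbol of the form Rpl or Rps followed by a number (with an optional suffix letter), the stalk genes Rplp0 to Rplp2, and Rpsa, without pseudogene symbols. Of the 61 genes, 23 belong to the small subunit and 38 to the large subunit. RefSeq lists 60 of the 61 as protein-coding and Rps4l as a transcribed pseudogene. Another 17 symbols of the same form, among them Rpl3, Rpl11, Rps24 and Rps27, lie on probesets that carry several symbols and were not counted as single genes.

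The study asks what heme oxygenase-1 (HO-1, gene Hmox1) does in adipose precursors (APs), the fat cells' progenitors, during high-fat feeding. Obese C57BL/6J males, fed a high-fat diet (HFD) for 8 weeks starting at week 6 of age, gave RNA from visceral fat around the gonads (viWAT). Hmox1f/f PdgfraCre mice carry 2 floxed Hmox1 alleles and a Cre whose promoter is that of Pdgfra, a receptor gene of APs that other mesenchymal cells express too. The Hmox1f/f mice carry the same floxed alleles with no Cre, so an effect of Cre alone and one of losing Hmox1 cannot be told apart. Arrays 1 to 3 were hybridised with RNA of Cre mice and arrays 4 to 6 with that of controls, each a pool from 2 mice.

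Ribosomal proteins bind ribosomal RNA in fixed proportion, one copy each for nearly all of them, and their messages are among the most abundant in any cell. The genes are typically active together in all tissues. Their messages begin with a C followed by a run of pyrimidines, the 5′ terminal oligopyrimidine (TOP) tract, through which the kinase complex mTORC1 and the RNA-binding protein LARP1 set how well they are translated and how long they are kept. Transcription and translation can therefore part for these genes, and an array measures only the amount of message.

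The start regions of the genes were searched for runs of pyrimidines and for other short sequences. RefSeq promoter sequences (GRCm38.p6, 250 bases before to 50 bases after the annotated start) were found for 49 of the 61 genes. A run of at least 8 bases C or T within 5 bases of the annotated start stood in 16 of the 49 (32.7%), against 12% of 17491 protein-coding genes, where a gene with several annotated starts was counted if any of them had it (as for Rpl19, whose first start had none). The letters CGGAAG, the core bound by ETS factors such as GABPA, stood on either strand in 33 (67.3%), against 23.5%. GGGCGG, the GC box of SP1, stood in 59.2% of them and in 49.2% of all genes. TATAAA stood in 12.2% of them and in 14.8% of all genes, and CACGTG, the E-box of MYC, in 10.2% and 8.91%. An annotated start can lie some bases off the start in use, so a gene without a run at that place may still have a TOP tract. The search did not require a C at the first base of the message. A run could also end before the annotated start, as that of Rps27l does, so a run is not by itself a TOP tract. The following 30 bases, 15 on each side of the annotated start, are shown for 4 genes that come up below, 5′ to 3′ on the gene's strand, with the run of C and T in capitals. They are Rpl7a (chr2:26910792-26910821, plus strand), Rps9 (chr7:3704026-3704055, plus strand), Rps27l (chr9:66946071-66946100, plus strand) and Rps10 (chr17:27635230-27635259, minus strand).
Rpl7a: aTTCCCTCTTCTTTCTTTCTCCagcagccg
Rps9: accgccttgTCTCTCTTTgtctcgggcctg
Rps27l: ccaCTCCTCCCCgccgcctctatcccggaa
Rps10: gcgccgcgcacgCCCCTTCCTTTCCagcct
The 100 bases before the start of Rps6, the ribosomal protein that S6 kinase phosphorylates, and of Rps25 show the CGGAAG core, or CTTCCG on the other strand, in capitals. They lie at chr4:86857368-86857467 on the minus strand and chr9:44407614-44407713 on the plus strand.
Rps6: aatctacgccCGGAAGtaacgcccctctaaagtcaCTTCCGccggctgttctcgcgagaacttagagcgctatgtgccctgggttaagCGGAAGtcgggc
Rps25: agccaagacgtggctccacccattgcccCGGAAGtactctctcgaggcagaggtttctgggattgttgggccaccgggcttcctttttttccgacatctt
The fitted differences between genotypes described below had a median of -0.12 on the log2 scale both in the 16 tested genes with a run of C and T at the start and in the 30 without one. With CGGAAG the median was -0.14 in 32 genes, and without it -0.09 in 14.

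The material and the arrays set limits on these values. The labels call the RNA both purified APs and viWAT. All 11 AP markers found were above a log2 intensity of 7, and so were all 9 markers of mature adipocytes, all 15 of macrophages and all 10 of endothelial cells. In such bulk RNA fewer cells of a type and less RNA per cell cannot be told apart. Hmox1 was lower on each array with Cre, by 0.83 in log2 on average (unadjusted p = 0.00944, adjusted p = 0.266, limma). Of the 11024 genes above the filter on low values (a log2 intensity over 7 on at least 3 arrays), 0 passed an adjusted p of 0.05 by limma and 1740 (15.8%) had an unadjusted p under 0.05. Hmox1f/f 6 stands apart by spermatid messages, Hmox1f/f PdgfraCre 1 by epididymal ones (summed level 13.63, against 9.08 to 11.71 on the other arrays) and Hmox1f/f PdgfraCre 3 by the lowest macrophage markers, so results are also given without each of them. With 3 arrays per genotype, array number sets the precision.

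Of the 61 ribosomal protein genes 58 passed the filter and were tested. With Cre, 49 of the 58 (84.5%) had a lower mean than without, where 57.4% of all genes tested did. The differences were small. The median of the 58 was -0.12 on the log2 scale, against -0.03 over all genes tested, and they ran from -0.39 for Rpl12 to 0.15 for Rpl7, so that the largest was 1.31-fold. None passed the adjusted threshold, the smallest adjusted p being 0.266 (limma). At an unadjusted p under 0.05, 8 genes (13.8%) were lower and 0 were higher. Over all genes 12.8% were lower and 3.03% higher at that p, so the count of 8 was near the background. In 29 of the 58 genes (50%) the 3 arrays with Cre all lay below the 3 without, which held for 21.2% of all genes, and in 0 they all lay above, against 5.82%. Ribosomal protein genes are bright, and brighter genes had more such cases: among the 2062 genes with a mean log2 intensity above 10, a limit chosen after the data were seen, 28.8% had all Cre arrays below and 58.1% had a lower mean. At an unadjusted p under 0.05, 16.7% of these 2062 genes were lower. Of the 44 ribosomal protein genes above that limit, 37 had a lower mean. For 49 of the 58 genes the 95% confidence interval of the difference lay within 0.5 on either side of 0, and the median half-width of the interval was 0.22.

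**Figure D1:**
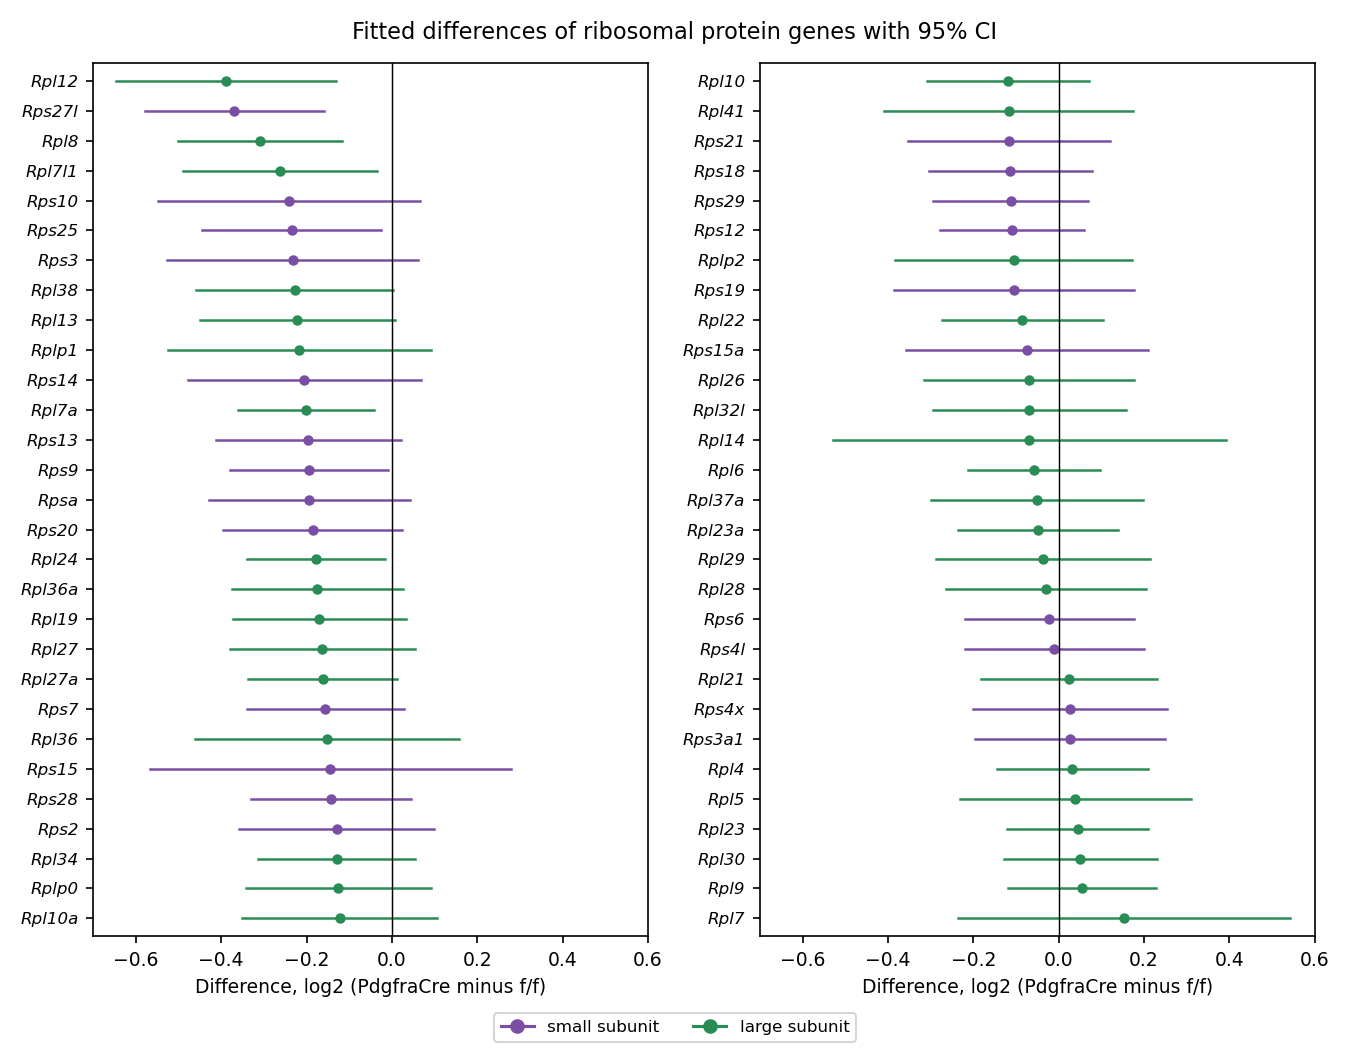
Fitted log2 difference (horizontal axis, Hmox1f/f PdgfraCre minus Hmox1f/f, shown as f/f) of each of the 58 tested ribosomal protein genes, sorted from the lowest at the upper left to the highest at the lower right, with bars for the 95% confidence interval of the limma fit. Points run from -0.39 (Rpl12) to 0.15 (Rpl7), 49 of them left of 0, and the bars of 8 genes do not reach 0.

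The 8 genes with the smallest p come from both subunits. Rps27l, a paralogue of Rps27 that p53 is known to induce, gave log2 intensities of 9.63, 9.78 and 9.66 on the Cre arrays 1 to 3 and 9.94, 10.10 and 10.14 on the control arrays 4 to 6. The groups did not overlap, and the difference was -0.37 ± 0.09 (SE, n = 3 per group, unadjusted p = 0.00478, adjusted p = 0.266, limma). Rpl8 encodes a protein close to the peptidyl transferase centre of the large subunit. It stood at 10.72, 10.71 and 10.67 with Cre and at 10.92, 10.98 and 11.13 without, a difference of -0.31 ± 0.08 (SE). Its Cre arrays lay within a narrow band, and the spread was larger among the controls. Rpl12, part of the base of the stalk that receives the translation factors, gave 7.0, 7.29 and 7.13 with Cre and 7.60, 7.60 and 7.39 without. It is one of the dimmest of the 58, close to the filter, and its difference of -0.39 ± 0.11 (SE) was the lowest of all. Rpl7a, a large-subunit protein, read 10.35, 10.37 and 10.33 with Cre and 10.50, 10.56 and 10.59 without, a difference of -0.20 ± 0.07 (SE). The Rpl7a values thus formed 2 separate bands.

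The other 4 of these genes also showed no overlap, which is likely in genes chosen for a small p and adds no support. Rpl7l1, a paralogue of Rpl7, gave 8.92, 9.22 and 9.07 with Cre and 9.31, 9.34 and 9.35 without. The controls agreed closely for it and the Cre arrays did not, and its difference was -0.26 ± 0.09 (SE). Rps25, which some viral internal ribosome entry sites need, gave 11.11, 11.15 and 11.10 with Cre and 11.21, 11.40 and 11.46 without, a difference of -0.23 ± 0.09 (SE). Hmox1f/f 4 lay nearer to the Cre arrays than to the other controls there. Rpl24, the gene mutated in belly spot and tail mice, gave 10.24, 10.23 and 10.27 with Cre and 10.39, 10.48 and 10.41 without, a difference of -0.18 ± 0.07 (SE). Rps9, a small-subunit protein at the entry of the mRNA channel, gave 10.92, 10.94 and 10.85 with Cre and 11.05, 11.04 and 11.19 without, a difference of -0.19 ± 0.08 (SE). Adjusted p-values of the 8 genes lay between 0.266 and 0.303 (limma), above the threshold in each. Rps27l, Rpl8 and Rpl12 kept an unadjusted p under 0.05 in all 16 settings of the analysis, and the other 5 did so in 7 to 12 of those in which they were tested. Rps10, which carries a ubiquitin mark on stalled ribosomes, was among the 5 lowest differences but not among the 8. It gave 11.60, 11.63 and 11.22 with Cre and 11.67, 11.69 and 11.82 without, a difference of -0.24 ± 0.13 (SE, unadjusted p = 0.104, limma), and Hmox1f/f PdgfraCre 3 alone lay far from the rest.

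**Figure D2:**
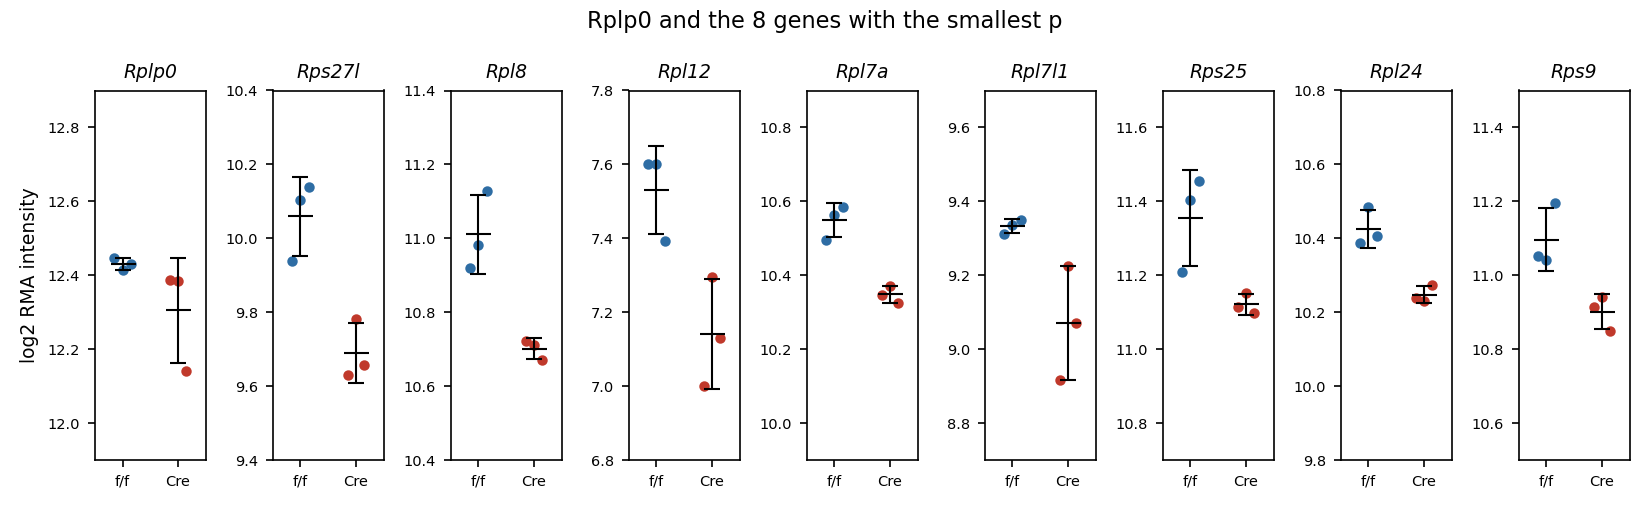
Log2 RMA intensity (vertical axis, 1 unit high in each panel) on the Hmox1f/f (f/f, blue) and Hmox1f/f PdgfraCre (Cre, red) arrays, points in order of array number. Black bars give each group's mean and SD (n = 3). In all 9 genes the 3 red points lie below the 3 blue points, from Rplp0, where 1 of the red points (12.14) lies far below the other 2, to Rps9.

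One array carried much of the group difference. On Hmox1f/f PdgfraCre 3 the 58 genes lay on average 0.15 below their own means (-0.15 in log2), against -0.02 and -0.01 on the other Cre arrays and 0.05, 0.07 and 0.06 on the control arrays 4 to 6. All genes tested lay at -0.04, -0.03, 0.02, 0.04, 0.02 and -0.00 on these 6 arrays, which quantile normalization holds near 0. Hmox1f/f PdgfraCre 3 held the lowest value of 41 of the 58 genes (70.7%), while it held the lowest value of 25.9% of all genes and of 34.2% of those with a mean above 10. The highest value lay on Hmox1f/f 6 in 28 of the 58, and in 24.5% of all genes tested. Without Hmox1f/f PdgfraCre 3 the median difference was -0.06, close to the -0.05 of all genes tested. In that setting 44 of the 58 genes were lower with Cre, a larger share than the 63.1% of all genes. At an unadjusted p under 0.05, 5 of the 58 (8.62%) were lower, against 10.9% of all genes. Both remaining Cre arrays then lay below all controls in 29 of the 58 genes (50%), against 29.8% of all genes. Leaving out an array cannot make separate groups overlap, so the 29 genes separate on all arrays had to remain. The count of 29 was thus the lowest possible, while the share of all genes rose from 21.2% to 29.8%. Without Hmox1f/f 6 the median was -0.12 against -0.04 over all genes, with 50 genes lower (61.8% of all genes), 4 of them (6.9%) at an unadjusted p under 0.05 against 7.4%. Without Hmox1f/f PdgfraCre 1 the median was -0.17 against -0.03, with 47 genes lower (55.7% of all genes), 6 of them (10.3%) at that p against 7.28%. When the Cre array 2 or the control array 4 or 5 was left out, the counts at that p were 8 (13.8%), 5 (8.62%) and 3 (5.17%), against 13.5%, 7.91% and 9.62% of all genes. The macrophage markers were also lowest on Hmox1f/f PdgfraCre 3, in 12 of 15. Their summed level, as log2 of the summed intensities, was 15.40, 15.65 and 15.16 with Cre and 15.81, 15.78 and 15.87 without. All 15 were lower with Cre, 10 at an unadjusted p under 0.05, against 57.4% and 12.8% of all genes tested. Their median was -0.42. Summed markers of mature adipocytes ran from 15.75 to 15.86 with Cre and from 15.52 to 15.69 without, and those of endothelial cells from 13.06 to 13.24 and from 12.57 to 12.93. The part of these cell types in the ribosomal protein values was not tested.

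**Figure D3:**
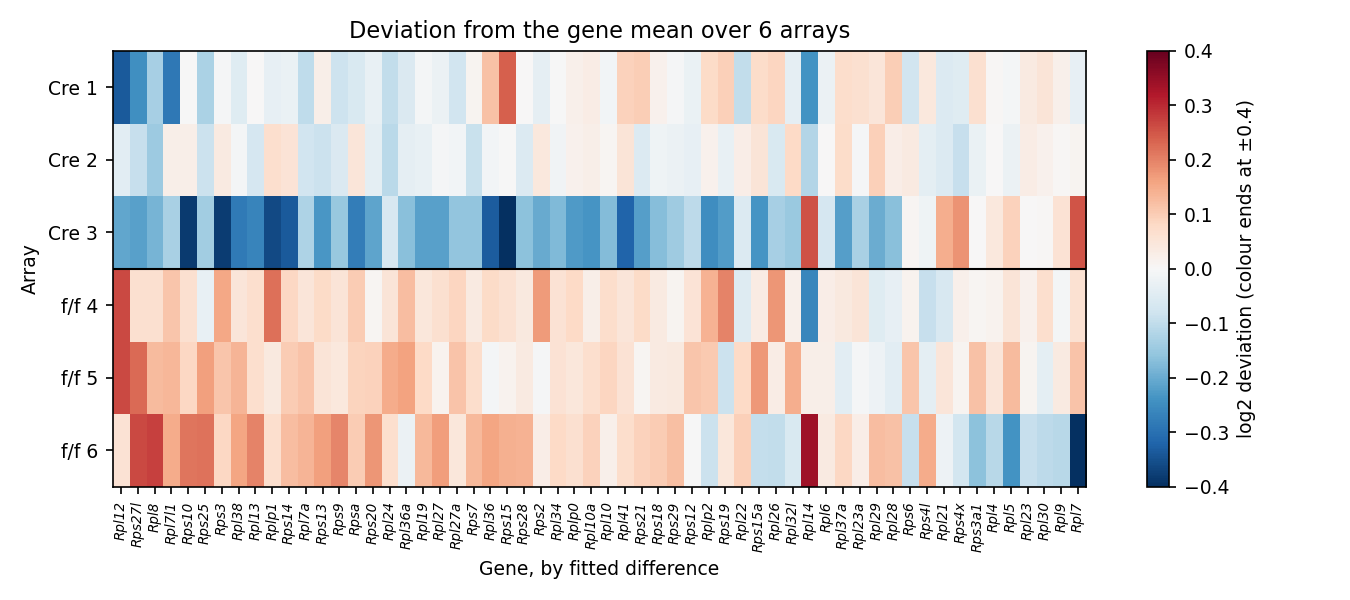
Deviation of each of the 58 genes (columns, from the lowest to the highest fitted difference) from its own mean over the 6 arrays (rows, Cre 1 to 3 above the line, f/f 4 to 6 below), as colour in log2, blue below and red above the mean, with the scale ending at 0.4 on either side. Hmox1f/f PdgfraCre 3 is blue in most columns (47 of 58 below the gene's mean), and the columns at the far right are blue on Hmox1f/f 6 instead.

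The small subunit and the large subunit stood side by side. Of the 23 small-subunit genes 21 were lower with Cre, 3 of them at an unadjusted p under 0.05 and 0 higher, with a median of -0.14 and a range from -0.37 to 0.03. Of the 35 tested large-subunit genes 28 were lower, 5 of them at that p and 0 higher, with a median of -0.12. Of all genes tested 57.4% were lower, and 12.8% were lower at that p. The counts at that p were thus near the background in both subunits. On Hmox1f/f PdgfraCre 3 the small subunit lay at -0.18 and the large at -0.12 relative to the genes' own means. Rps15, a small-subunit protein of the decoding region, had the largest SE of the tested small-subunit genes (0.18), with 12.34, 12.10 and 11.64 on the Cre arrays 1 to 3 and 12.16, 12.11 and 12.24 on the control arrays (chosen after its values were seen). Of those Cre arrays 1 was the highest of all arrays and 3 the lowest.

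The acidic stalk of the large subunit, formed by Rplp0 with the P1 and P2 proteins on a base with Rpl12, was lower with Cre in all 4 genes, with a median of -0.17. Of all genes tested 57.4% were lower, and of the ribosomal protein genes 84.5%. At an unadjusted p under 0.05, 1 of the 4 was lower, against 12.8% of all genes. Rplp0 is of added interest because the study's quantitative PCR was scaled to it. Its log2 intensity was 12.39, 12.39 and 12.14 on the Cre arrays and 12.45, 12.41 and 12.43 on the controls. All 3 Cre arrays lay below the controls, 2 of them narrowly. The difference was -0.13 ± 0.09 (SE, n = 3 per group), and its 95% confidence interval ran from -0.34 to 0.09 (adjusted p = 0.499, limma). Rplp1 gave 12.59, 12.69 and 12.26 with Cre against 12.84, 12.66 and 12.69 without, and here the groups overlapped. Rplp2 gave 7.63, 7.57 and 7.30 with Cre against 7.69, 7.66 and 7.47 without. Both were lowest on Hmox1f/f PdgfraCre 3, and their differences were -0.22 ± 0.13 and -0.11 ± 0.12 (SE).

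In other groups of these genes most were lower with Cre as well, though not all. At the rim of the exit tunnel, where the nascent chain leaves the ribosome, 4 of 8 listed genes could be tested, and all 4 were lower with a median of -0.08. Among them Rpl22, an RNA-binding protein known from T cell development, gave 8.30, 8.43 and 8.34 with Cre and 8.35, 8.48 and 8.50 without. Genes mutated in Diamond-Blackfan anaemia, in which red cell precursors fail, were lower in 9 of the 10 that could be tested of 20. Their median was -0.13, and 0 had an unadjusted p under 0.05. The shares of all genes tested were 57.4% lower and 12.8% lower at that p. Of the X-linked genes, Rpl10, which is added in one of the last steps of large-subunit assembly, gave 13.02, 13.04 and 12.86 with Cre against 13.11, 13.12 and 13.06 without. Rpl36a gave 10.55, 10.57 and 10.45 against 10.74, 10.77 and 10.59. Neither overlapped between groups, with differences of -0.12 ± 0.08 and -0.17 ± 0.08 (SE). Rps4x, the third X-linked gene, gave 11.19, 11.15 and 11.42 against 11.26, 11.25 and 11.17 and was highest on Hmox1f/f PdgfraCre 3.

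Rps4x is 1 of 9 genes with a higher mean with Cre, together with Rps3a1, Rpl4, Rpl5, Rpl7, Rpl9, Rpl21, Rpl23 and Rpl30. Their differences ran from 0.02 to 0.15, the smallest unadjusted p was 0.377 (limma), and the groups overlapped in all 9. On the arrays they ran the other way from the remaining 49. Their mean deviation was 0.09 on Hmox1f/f PdgfraCre 3 and -0.15 on Hmox1f/f 6, where the 49 lower genes stood at -0.19 and 0.10. Hmox1f/f 6 held the lowest value of 7 of the 9, and of 26.9% of all genes tested. As the 9 were picked by their sign, these means describe them and test nothing. Rpl7, an RNA-binding protein of the large subunit, showed it most, with 11.39, 11.43 and 11.67 on the Cre arrays and 11.48, 11.53 and 11.01 on the controls. Its difference of 0.15 ± 0.16 (SE) was -0.01 without Hmox1f/f 6. Rpl5, which joins Rpl11 and the 5S RNA in the particle that can bind Mdm2 and stabilise p53, gave 11.61, 11.59 and 11.71 with Cre against 11.67, 11.75 and 11.38 without. Its difference of 0.04 turned to -0.07 without Hmox1f/f 6. Rpl23, a further Mdm2 binder, gave 12.42, 12.41 and 12.39 with Cre and 12.40, 12.39 and 12.29 without. Rpl9, of the large subunit, gave 11.60, 11.59 and 11.64 with Cre and 11.57, 11.62 and 11.47 without. Rpl30, which also binds the selenocysteine element of selenoprotein messages, gave 7.73, 7.70 and 7.69 with Cre and 7.75, 7.64 and 7.58 without. In each of these 3 genes the lowest value of the 6 was that of Hmox1f/f 6.

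Processed copies of ribosomal protein genes are known to be spread over the genome, and which copies a probeset reads was not tested. The 61 genes had 217 probesets, 39 genes more than 1. The differences of 1 gene's probesets spanned a median range of 0.05, and only Rpl5 and Rpl9 had probesets of both signs. The widest range was that of Rps14, at 0.21, with differences of -0.42 and -0.20 for its 2 probesets. All 4 Rpl7 probesets were higher with Cre, from 0.11 to 0.15, and all 5 of Rps4x, from 0.01 to 0.08. Of the 217 probesets 182 (83.9%) were lower with Cre. Probesets were not filtered here. Without the filter 49.4% of all genes were lower, and the share of all probesets was not counted. The 237 probesets with a symbol of this kind beside others, which hold the 17 symbols left out, were lower in 201 cases (84.8%), with a median of -0.10 and a range from -0.39 to 0.09. Probesets of near-identical copies are not independent of each other.

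Paralogues whose use is restricted to certain tissues were at the bottom of the scale. Rpl10l and Rpl39l, which serve male germ cells, and Rpl3l, which serves striated muscle, were the 3 genes below the filter on all 6 arrays, and none was tested. Rpl10l gave 5.75, 5.86 and 5.39 with Cre and 5.88, 5.75 and 6.61 without. Rpl39l gave 4.58, 4.86 and 4.75 with Cre and 4.86, 4.91 and 5.67 without. Both were highest on Hmox1f/f 6. That array also had the highest level of spermatid messages: the protamine gene Prm1 stood at 7.71, 7.31 and 8.85 with Cre and at 8.28, 9.26 and 11.30 without, and the lactate dehydrogenase gene Ldhc at 6.36, 6.38 and 7.38 against 6.71, 7.69 and 10.60. The summed level of the 14 spermatid markers was 11.42, 10.10 and 11.72 with Cre and 10.72, 12.08 and 14.38 without. Whether cells that carry these messages contribute to the 2 paralogue values was not tested. Rpl3l gave 5.91, 5.52 and 5.43 with Cre and 5.55, 5.39 and 5.29 without. The summed level of 12 striated muscle markers was 10.58, 10.67 and 10.58 with Cre and 10.98, 10.75 and 10.54 without. Of these markers, 3 passed the filter. The sum was highest on Hmox1f/f 4, and Rpl3l on Hmox1f/f PdgfraCre 1. Rps4l, the locus listed as a pseudogene, gave 8.59, 8.51 and 8.53 against 8.46, 8.51 and 8.70, with the groups overlapping.

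**Figure D4:**
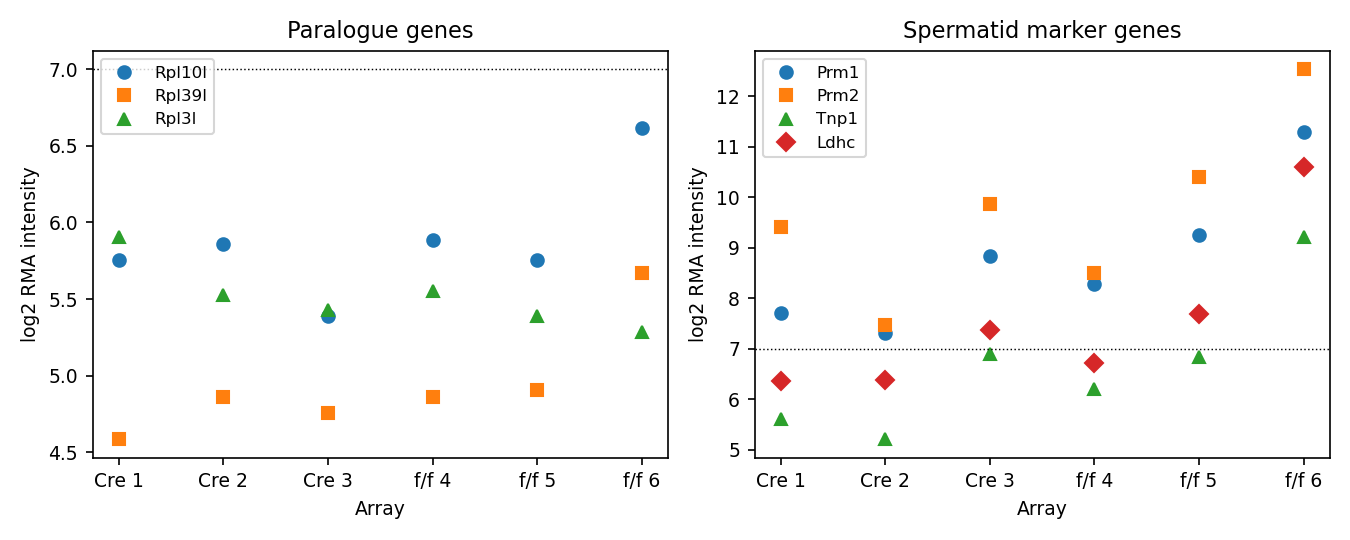
Log2 RMA intensity (vertical axes) of the paralogue genes Rpl10l, Rpl39l and Rpl3l (left) and of 4 spermatid marker genes (right) on each of the 6 arrays (horizontal axes, Cre 1 to 3 and f/f 4 to 6), with the filter at 7 as a dotted line. Levels can be read across arrays for 1 gene but not between genes; Rpl10l, Rpl39l and all 4 spermatid genes are highest on Hmox1f/f 6.

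The other groups of the translation machinery give the setting. Fau, which encodes a small-subunit protein fused to a ubiquitin-like part and was outside the rule on names, gave 11.35, 11.20 and 10.92 with Cre and 11.30, 11.24 and 11.32 without, again lowest on Hmox1f/f PdgfraCre 3. The 15 tested genes of other TOP messages, elongation factors among them, were lower in 11 cases with a median of -0.09. Of the 15, 9 were lowest on Hmox1f/f PdgfraCre 3, against 25.9% of all genes tested. The mean deviation of the 15 there was -0.01, however, against -0.05 and -0.04 on the Cre arrays 1 and 2. In that list Eif3f, a subunit of initiation factor eIF3, differed by -0.22 ± 0.07 (SE, unadjusted p = 0.0208, limma), Eef1b2 by -0.19 ± 0.10 and Eef1d by -0.15 ± 0.08. Of 19 initiation factors 12 were lower, 5 at an unadjusted p under 0.05, with a median of -0.12. Among all genes tested 57.4% were lower, and 12.8% were lower at that p. Eif4h, a helper of the helicase eIF4A, differed by -0.32 ± 0.08, Eif6, which keeps the subunits apart, by -0.29 ± 0.10, and Eif3d by -0.22 ± 0.07 (SE). These 19 genes were more often lowest on Hmox1f/f PdgfraCre 1 (11 genes) than on Hmox1f/f PdgfraCre 3 (2 genes). The shares of all genes tested were 24.3% and 25.9%.

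The makers of ribosomes showed another order of the arrays than the ribosomal proteins. Of 49 genes of ribosome biogenesis 34 were lower with Cre, 3 at an unadjusted p under 0.05 and 1 higher at it, with a median of -0.09. Among all genes tested 57.4% were lower, and at that p 12.8% were lower and 3.03% higher. Neither count at that p exceeded this background. Bop1 and Pes1, which act together in maturing the large-subunit RNA, differed by -0.26 ± 0.07 and -0.28 ± 0.10, and Nop16 by -0.18 ± 0.07 (SE). As a group they lay at -0.13 on Hmox1f/f PdgfraCre 1 and at 0.06 on Hmox1f/f PdgfraCre 3. Of 16 genes of RNA polymerase I and its factors 14 were lower, with a median of -0.06, and Polr2f, a subunit shared by the 3 nuclear polymerases, had the smallest p with -0.39 ± 0.09. Polr1d and Polr1c, which polymerases I and III share, differed by -0.19 ± 0.09 and -0.11 ± 0.07 (SE).

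Genes of the mTORC1 pathway did not share the direction, with 5 of 17 lower (57.4% of all genes tested) and a median of 0.07. Mtor itself differed by 0.13 ± 0.10 and Larp1 by 0.07 ± 0.11 (SE). Akt1, the kinase upstream, had the only unadjusted p under 0.05 in that list, with 10.07, 10.14 and 9.77 on the Cre arrays and 10.28, 10.29 and 10.51 on the controls, a difference of -0.36 ± 0.12 (SE). The mTORC1 inhibitors Deptor and Akt1s1 differed by 0.20 ± 0.09 and -0.19 ± 0.09. Myc, the transcription factor known for driving ribosome production, gave 8.77, 8.70 and 8.61 with Cre and 8.87, 8.83 and 9.22 without, a difference of -0.28 ± 0.12 (SE, unadjusted p = 0.0576, limma). Its partner Max differed by -0.29 ± 0.08 and Mdm2 by -0.14 ± 0.07 (SE).

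A lower mean with Cre was not limited to the cytosolic ribosome. Of 73 tested genes of the mitochondrial ribosome, which translates the messages of mitochondrial DNA, 65 (89.0%) were lower, 9 at an unadjusted p under 0.05 and 0 higher, with a median of -0.10. Of 37 proteasome genes 34 (91.9%) were lower, 8 at that p and 0 higher, with a median of -0.14. Over all genes tested 57.4% were lower, and at that p 12.8% were lower and 3.03% higher. The count of 9 in 73 was thus near the background and that of 8 in 37 above it. The 3 lists thus had like medians and shares, and no difference between lists was tested. The arrays differed in rank: the mitochondrial ribosome lay at -0.09 on Hmox1f/f PdgfraCre 1 and -0.05 on Hmox1f/f PdgfraCre 3, and the proteasome at -0.13 and -0.04, while the cytosolic ribosomal proteins lay at -0.02 and -0.15. Hmox1f/f PdgfraCre 3 held the lowest value of 34.2% of the mitochondrial ribosome genes and 32.4% of the proteasome genes, against 25.9% of all genes tested.

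**Figure D5:**
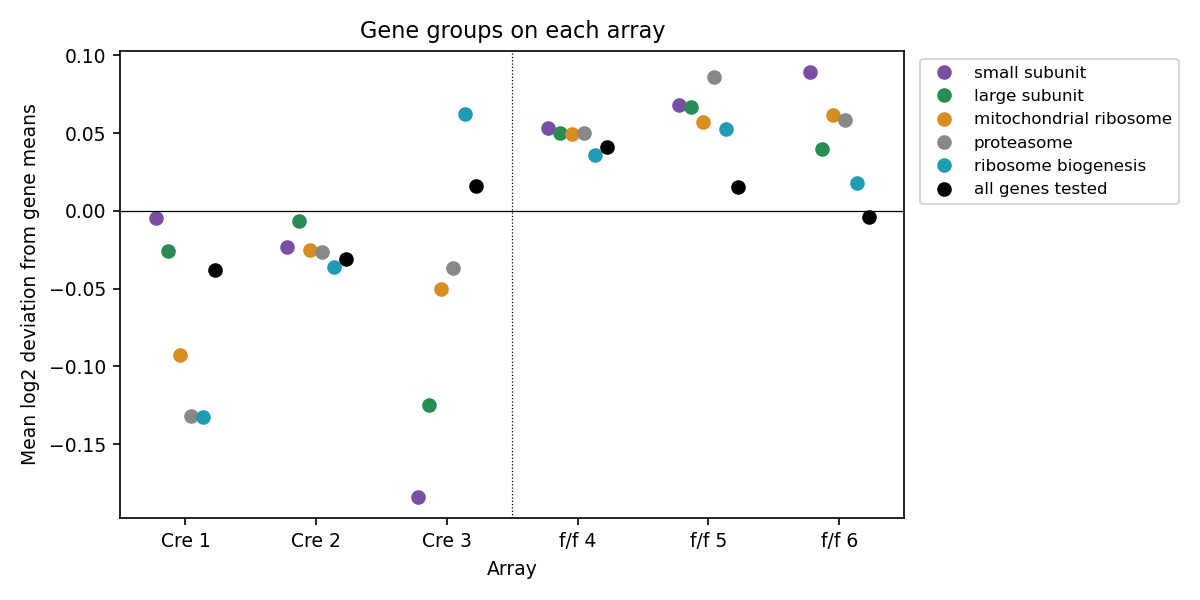
Mean log2 deviation of the genes of a group from their own means over 6 arrays (vertical axis), for each array (horizontal axis, Cre 1 to 3 and f/f 4 to 6), with 1 point per group of genes. Both ribosomal subunits are lowest on Cre 3 (-0.18 and -0.12), the mitochondrial ribosome, proteasome and biogenesis groups on Cre 1 (-0.09, -0.13 and -0.13), and all of these groups lie above 0 on the 3 control arrays.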

How the data were processed

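Total RNA (200 ng per array) was labelled and hybridised to 6 Affymetrix mouse gene arrays. The intensity values deposited by the authors are linear, 1 per probeset and array, rounded to whole numbers from 8 to 20701. Per the submitters' processing notes they were made with RMA in Affymetrix Expression Console 1.1. RMA normalizes quantiles, so it hides any change common to most genes, and it compresses dim probesets. Log2 was taken before all steps.

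Of 35556 probesets 21789 had 1 gene symbol in the platform annotation, 1621 several and 12146 none. The brightest probeset of each gene by its mean over 6 arrays was used, which gave 19938 genes. Genotype was fitted on all arrays with limma 3.58.1 in R 4.3.3 (lmFit, eBayes over all genes, two-sided). Genes above a log2 of 7 on at least 3 arrays were then kept and adjusted by Benjamini-Hochberg over these 11024. Counts and figures were made in Python 3.11.15 with pandas 2.3.3 and matplotlib 3.10.9. The fit was tested on simulated data. Nothing in the labels says more of the replicates than that each is a pool of 2 mice, and no batch is given. The probe positions were not analysed here, so how far the Hmox1 probeset checks the labels was not tested.

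The genes described are Rplp0, the 8 with the smallest p, the 5 highest and 5 lowest differences, paralogues and their namesakes, stalk, 5S and X-linked genes, genes below the filter, and up to 3 per list of related genes beside Myc, Larp1 and Mtor. Genes and lists were chosen with earlier results of these data known. The alternatives tried were no filter, a lower one at 6 and the filter of the methods. That filter adds a limit on spread, and its passage opens with other arrays but names a Cre effect. Also tried were a further quantile normalization of the RMA values, median centring, trend and robust moderation, and array weights. The last were the mean of all probesets and leaving out each array. Filtering before moderation was added after the data were seen.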

Additional observations from a re-analysis of the deposited data

How the results depend on the processing

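Under the 15 other settings 0 ribosomal protein genes passed an adjusted p of 0.05 by limma and 0 were higher at an unadjusted p under 0.05. The count of lower genes at that p, 8 as reported, was 4 under the filter of the methods. That filter keeps only the genes that vary most. It left 7 of the ribosomal protein genes, with a median of -0.26 against 0.004 over all genes kept. The count was 3 after a further quantile normalization of the RMA values (median -0.079, against -0.015 over all genes). With the mean of all probesets it was 13 (median -0.13, against -0.033). Leaving out 1 array gave 3 to 8 (5 when Hmox1f/f PdgfraCre 3 was left out, 5, 3 and 4 when Hmox1f/f 4, 5 or 6 was), with medians from -0.17 to -0.061. In the other settings the count was 8 to 12 and the median -0.15 to -0.085, against -0.060 to 0 over all genes. The share of all genes at that p was counted only for the reported setting and with 1 array left out. Of 22 genes described, 18 kept their direction in all settings. Rps4l was at 0.023 after the further quantile normalization, 0.040 with array weights and from -0.060 to 0.061 with 1 array left out. Rps4x was at -0.0005 with centring, -0.039 with array weights and from -0.057 to 0.079 with 1 array left out. Rpl5 was at -0.077 with array weights, -0.0014 with the mean of probesets and from -0.071 to 0.11 with 1 array left out. Rpl7 was at -0.037 with array weights and from -0.012 to 0.25 with 1 array left out. The cause was not tested. No paired analysis was possible because the genotypes share no replicate numbers. RMA values near 7, as of Rpl12, Rplp2 and Rpl30, are compressed, so their differences may be understated.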
